A study of Mus musculus with 9 samples.

Results

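The blood-testis barrier junction genes were 9 genes, Cldn3, Cldn5, Cldn11, Ocln, Tjp1, Gja1, Cdh2, Afdn and Nectin2, taken by gene name from the 55401 genes of the deposited table. Every name was found once. All 9 passed the filter on low values, which asked for 1 FPKM or more in 3 or more libraries, as did 14570 genes in all. FPKM counts fragments relative to both gene length and library total, and levels of different genes were compared on this scale.

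RNA was sequenced from whole testis of mice in 9 libraries, 3 per group. Every group had received busulfan, an alkylating drug that kills dividing germ cells, and the groups differed in what was then injected. BP mice received PBS (replicates 5, 6 and 7). BE mice received exosomes, small vesicles released by cells, from the blood of wild-type mice (replicates 6, 7 and 8), and BdE mice received exosomes from mice whose gut microbiota was disturbed (replicates 5, 6 and 7). Strain, age, dose and interval are not given in the labels, and no group without busulfan was analysed here. Whether replicates were separate animals is not stated in the labels, so the spread behind each p-value may be technical.

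The barrier is built by neighbouring Sertoli cells, the somatic cells that nurse germ cells inside the seminiferous tubule. Tight junctions, in which claudins and occludin seal the space between cells, lie there beside a testis-specific adherens junction named the ectoplasmic specialization, gap junctions and desmosomes. The barrier opens and closes as germ cells move across it, and it keeps later germ cells apart from blood and the immune system. Claudin 5 also seals blood vessels, and most of the other proteins occur in further cell types, so in whole-tissue RNA fewer cells of a type and less RNA per cell cannot be told apart.

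Library totals lay between 57923652 and 70103125 counts. Of the Sertoli cell markers, 14 of 14 passed the filter, and their summed FPKM was 5025 to 5319 in BP, 5081 to 5834 in BE and 5420 to 5851 in BdE. Clu, at a mean of 2604 FPKM, was the largest part of that sum. Between BdE and BP the single markers went both ways, with log2 fold changes from -0.68 for Trf to 0.96 for Dhh over 9 libraries. The Dhh value rested on BdE 7, with 4.88, 4.39 and 34.4 FPKM in BdE 5, 6 and 7. Dhh was at 7.53, 7.49 and 8.94 in BP, and did not pass (6-library edgeR adjusted p = 0.435). The label text on extraction names retinas, whereas the summed FPKM of 8 photoreceptor genes was 1.36 to 2.49 in every library, with Crx at 0. Germ cell markers summed to 9.57 to 25.6. BE 6 lay with the BP libraries in several measures. Mitochondrial genes took 7.10% to 8.01% of counts in BP and 7.19% in BE 6, but 14.5% in BE 7, 14.2% in BE 8 and 11.8% to 13.4% in BdE. For each library, gene length was rank-correlated with each gene's log2 level minus its mean over the 9 libraries, as a description. The correlation was 0.211 to 0.270 in the BP libraries, 0.258 in BE 6 and -0.230 to -0.069 in the other 5. Macrophage markers summed to 251 to 254 in BP and 265 in BE 6, against 74.4 to 143 in the other 5. No gene list used here marks which injection a mouse received, so the label of BE 6 could not be checked, and an exchanged label was not tested. Calls that rest on BE 6 are given with and without it.

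Cldn11 was the highest, at a mean of 392 FPKM over the 9 libraries (SD 40.9), above 99.6% of the genes tested. Nectin2 followed at 92.1 (SD 10.5), Gja1 at 32.1 (SD 6.93) and Tjp1 at 23.1 (SD 3.28). Cdh2 lay at 17.2 (SD 5.67), Cldn5 at 14.4 (SD 1.98) and Cldn3 at 13.9 (SD 5.19). Ocln at 10.3 (SD 1.5) and Afdn at 3.80 (SD 0.807) were the lowest. Ranges over libraries did not overlap between Cldn11 and Nectin2, between Nectin2 and Gja1, or between Ocln and Afdn. From Gja1 down to Ocln each gene's range overlapped that of its neighbour, so neighbours did not differ beyond their spread. Farther apart, Gja1 and Tjp1 were above Cldn5 and Ocln in every library. Cldn3 varied most, with a coefficient of variation of 37.3% and a ratio of highest to lowest library of 2.94, and Cldn11 varied least, at 10.4% and 1.33.

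**Figure D1:**
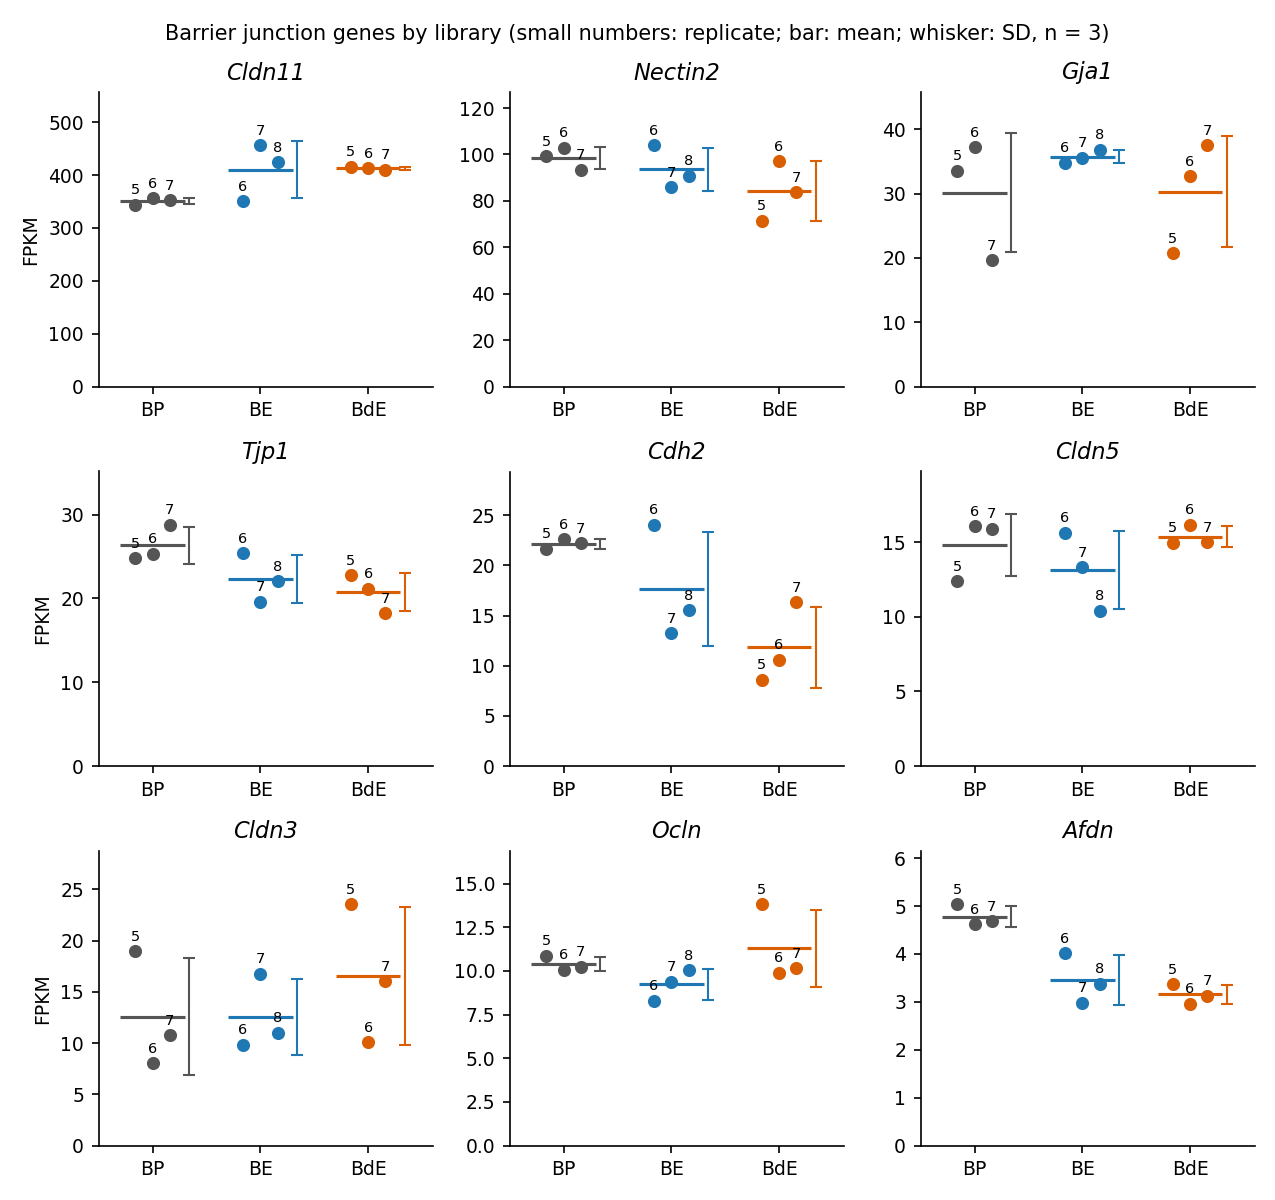
FPKM of each barrier junction gene in every library, on linear axes from 0, with the replicate number beside each point, the group mean as a bar and the SD over 3 libraries as a whisker. Every BdE library lies above every BP library for Cldn11 and below for Tjp1, Cdh2 and Afdn, while Cldn3 and Gja1 spread widely within a group. On counts scaled by library total and edgeR's TMM factors, 21.2% of all genes tested were higher in BdE without overlap and 22.8% lower.

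The sequence before the start site is shown for 3 of the genes: Cldn11 and Afdn, the genes that passed the test, in opposite directions, in the fit of the 6 BP and BdE libraries below, and Cldn3, which varied most. Each is the 250 bases upstream of the RefSeq start on GRCm38.p6, on the plus strand, 5′ to 3′. Capitals mark matches on either strand to the GC box (letters GGGCGG) or to the CCAAT box. The windows are chr3:31149670-31149919 for Cldn11, chr5:134985964-134986213 for Cldn3 and chr17:13760291-13760540 for Afdn.
Cldn11: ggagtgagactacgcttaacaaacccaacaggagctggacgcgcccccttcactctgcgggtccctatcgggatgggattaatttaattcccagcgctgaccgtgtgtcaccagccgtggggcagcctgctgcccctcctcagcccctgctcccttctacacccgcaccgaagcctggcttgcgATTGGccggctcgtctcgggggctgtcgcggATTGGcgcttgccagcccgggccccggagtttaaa
Cldn3: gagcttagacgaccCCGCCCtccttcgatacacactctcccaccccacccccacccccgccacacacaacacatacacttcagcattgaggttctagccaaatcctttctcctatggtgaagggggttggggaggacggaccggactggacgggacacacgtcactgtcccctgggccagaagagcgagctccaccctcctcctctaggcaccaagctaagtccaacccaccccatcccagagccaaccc
Afdn: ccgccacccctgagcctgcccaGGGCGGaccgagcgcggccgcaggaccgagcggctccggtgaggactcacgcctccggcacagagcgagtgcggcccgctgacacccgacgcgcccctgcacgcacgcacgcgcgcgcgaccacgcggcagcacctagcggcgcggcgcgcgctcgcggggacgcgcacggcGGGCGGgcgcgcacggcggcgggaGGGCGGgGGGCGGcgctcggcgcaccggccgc

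The Cldn11 window held 2 CCAAT boxes, both on the other strand and beginning at -66 and -35 from the start, and no GC box. The Afdn window held 4 GC boxes, at -228, -56, -32 and -25, and no CCAAT box, and the Cldn3 window held 1 GC box at -236. The share of G and C was 82.8% for Afdn, 63.6% for Cldn11 and 60.8% for Cldn3, against a median of 52.4% over 32851 RefSeq promoter windows. Of those windows 32.7% held a GC box and 33.8% a CCAAT box. The letters TATAAA, found in 12.4% of windows, were in none of the members' windows. Neither were the letters of a SOX motif, ACAATG, found in 10.7%. Those of a GATA motif, AGATAA, found in 9.99%, were present once, in the window of Gja1. Alone among the members' windows, the letters just after its start were in no annotated transcript of the gene. Entries were found for 8 of the 9 genes, all but Cdh2. These matches are descriptions of letters.

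The first question was whether the level of each gene differed between BdE and BP. Among the 9 genes, BdE libraries held more Cldn11 than any BP library and less Tjp1, Cdh2 and Afdn than any BP library. That non-overlap, on counts scaled by library total and edgeR's TMM factors (TMM-scaled CPM), was seen upward for 21.2% and downward for 22.8% of all genes tested. None of the 9 passed an adjusted p of 0.05 in the edgeR fit of all 9 libraries, where 0.00686% of genes did (1 gene). At an unadjusted p under 0.05 there were 4, the same genes that did not overlap, against 24.1% of all genes, and DESeq2 called Afdn alone, where 2.65% of genes passed. In the edgeR fit of the 6 BP and BdE libraries, 21.1% of genes passed, 9.2% higher and 11.9% lower, among them 2 of the 9, Cldn11 (higher) and Afdn (lower). The median log2 fold change of the 9 was 0.09, against 0.01 over all genes tested.

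Cldn11, chr3:31149920-31164324 on GRCm38 (ENSMUSG00000037625, plus strand, 1 annotated transcript), encodes claudin 11, the claudin on which Sertoli tight junctions depend in the mouse. Its FPKM was 344, 356 and 352 in BP 5, 6 and 7, and 416, 413 and 410 in BdE 5, 6 and 7. In BE 6, 7 and 8 it was 351, 457 and 424. The BdE libraries were tightly grouped and all above BP, and of the BE libraries only BE 6 lay within the BP range. In BdE against BP the log2 value was 0.31 (SE 0.127), with an edgeR adjusted p of 0.195 over 9 libraries. In the 6 libraries of the 2 groups it was 0.31 (SE 0.0575) and passed, at an edgeR adjusted p of 0.017. Scaled to the Sertoli markers, whose own median log2 fold change was 0.21, Cldn11 stood at 0.15 over 9 libraries (edgeR adjusted p = 0.549), with the median of all genes at -0.15.

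Cldn3, chr5:134986214-134987472 (ENSMUSG00000070473, plus strand, 1 transcript), encodes claudin 3, which in the mouse joins newly formed tight junctions as germ cells cross the barrier. Its FPKM was 19.0, 8.02 and 10.8 in BP, 9.83, 16.8 and 11 in BE, and 23.6, 10.1 and 16 in BdE, in replicate order. The 3 groups overlapped throughout, with the highest library in BdE and the lowest in BP. BdE differed from BP by a log2 value of 0.48 (SE 0.40, edgeR adjusted p = 0.448). BP 5, the highest BP library, also held the epididymal genes Crisp1 at 420 FPKM and Adam7 at 28, and its 8 epididymal markers summed to 448 FPKM against 0.342 to 1.88 in the other 8 libraries, with Lcn5, Lcn8 and Spag11b at 0 in every library. Without BP 5 the log2 fold change of Cldn3 was 0.88 (edgeR adjusted p = 0.335 over the other 8 libraries). It was 0.15 without BdE 5, the highest library (edgeR adjusted p = 0.845), and 0.24 without BP 6, the lowest (edgeR adjusted p = 0.755). The part of these transcripts in the Cldn3 level of BP 5 was not tested. Cldn3 overlaps Wbscr25 on the other strand, with 12 counts in BdE 5 and 1327 in BE 7 against 801 to 2355 for Cldn3, and without a stated strand setting reads of the pair cannot be told apart.

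Cldn5, chr16:18776847-18778262 (ENSMUSG00000041378, plus strand), encodes claudin 5, which seals endothelium and also occurs in Sertoli cells. Its FPKM was 12.4, 16.1 and 15.9 in BP, 15.6, 13.3 and 10.4 in BE, and 15.0, 16.2 and 15.0 in BdE. BdE lay inside the BP range apart from its highest library. Between BdE and BP the log2 difference was 0.13 (SE 0.16, edgeR adjusted p = 0.613). With libraries scaled to the Sertoli markers it was -0.02, with the median of all genes at -0.15. Endothelial markers, of which 10 of 12 were tested, summed to 35.5 to 40.2 FPKM in BP, 26.2 to 30.9 in BdE, 44.2 in BE 6 and 21.5 to 25.9 in BE 7 and BE 8. Scaled to those markers, Cldn5 was higher in BdE than in BP by a log2 value of 0.46, which did not pass (edgeR adjusted p = 0.283), with the median of all genes at 0.34.

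Ocln, chr13:100496507-100552718 (ENSMUSG00000021638, minus strand), encodes occludin, a membrane protein of the tight junction strand. Its FPKM was 10.9, 10.1 and 10.3 in BP, 8.29, 9.39 and 10.1 in BE, and 13.8, 9.91 and 10.2 in BdE. BdE 5 stood above all other libraries, and the remaining BdE libraries lay beside BP. Against BP, BdE stood at a log2 value of 0.20 (SE 0.153, edgeR adjusted p = 0.42). Without BdE 5 that value was 0.03. With libraries scaled to the Sertoli markers it was also 0.03, with the median of all genes at -0.15.

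Tjp1, chr7:65296165-65527696 (ENSMUSG00000030516, minus strand), encodes ZO-1, the scaffold that ties claudins and occludin to actin. Its FPKM was 24.8, 25.3 and 28.8 in BP, 25.4, 19.6 and 22 in BE, and 22.8, 21.2 and 18.3 in BdE. Every BdE library lay below every BP library, and BE 6 lay among the BP libraries. BdE minus BP gave a log2 fold change of -0.27 (SE 0.114), with an edgeR adjusted p of 0.201 over 9 libraries and 0.111 over 6.

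Afdn, chr17:13760539-13906150 (ENSMUSG00000068036, plus strand), encodes afadin, which links nectins to actin. Its FPKM was 5.04, 4.62 and 4.68 in BP, 4.02, 2.98 and 3.38 in BE, and 3.37, 2.96 and 3.13 in BdE, from 2351 to 3794 counts a library. All BE and all BdE libraries lay below all BP libraries, and BE 6 was the nearest to BP. In BdE against BP the log2 value was -0.52 (SE 0.109), a ratio of 0.697, with an edgeR adjusted p of 0.19 over 9 libraries. Afdn fell in the 6-library fit, at -0.52 (SE 0.0798, edgeR adjusted p = 0.0115), and in DESeq2 over 9 libraries (adjusted p = 0.00379).

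Cdh2, chr18:16588877-16809246 (ENSMUSG00000024304, minus strand), encodes N-cadherin, the classical cadherin of Sertoli cell adherens junctions. Its FPKM was 21.6, 22.6 and 22.2 in BP, 24.0, 13.3 and 15.5 in BE, and 8.60, 10.6 and 16.3 in BdE. The BP libraries lay close together, all BdE libraries were below them, and BE was split, with BE 6 the highest library of all. BdE differed from BP by a log2 value of -0.82 (SE 0.262), a ratio of 0.566. It did not pass, with edgeR adjusted p of 0.19 over 9 libraries and 0.0566 over 6. Without BdE 7 the 6-library value was -1.15 (edgeR adjusted p = 0.0214). Without BE 6 the fit of the other 8 libraries gave -0.82 (edgeR adjusted p = 0.0407, where 22.4% of genes passed). That 8-library fit called 3 of the 9 genes, Cldn11 higher (0.31, edgeR adjusted p = 0.0119) and Cdh2 and Afdn lower.

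Nectin2, chr7:19716644-19749573 (ENSMUSG00000062300, minus strand), encodes a nectin of the Sertoli cell side of the junction with spermatids in the mouse. Its FPKM was 99.2, 103 and 93.5 in BP, 104, 85.8 and 90.9 in BE, and 71.4, 97.2 and 83.7 in BdE. The groups overlapped, and BdE 5 was the lowest library. Between BdE and BP the log2 difference was -0.15 (SE 0.115, edgeR adjusted p = 0.408). Without BdE 5 it was -0.04. With Sertoli scaling it was -0.31 (edgeR adjusted p = 0.421), with the median of all genes at -0.15.

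Gja1, chr10:56377330-56402513 (ENSMUSG00000050953, plus strand), encodes connexin 43, the main gap junction protein between Sertoli and germ cells. Its FPKM was 33.5, 37.2 and 19.6 in BP, 34.8, 35.5 and 36.8 in BE, and 20.7, 32.7 and 37.5 in BdE. BP 7 and BdE 5 were low and the other 7 libraries lay between 32.7 and 37.5, so the low libraries came from different groups. Against BP, BdE stood at a log2 value of 0.09 (SE 0.266, edgeR adjusted p = 0.836). With libraries scaled to the Sertoli markers it stood at -0.10, with the median of all genes at -0.15.

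**Figure D2:**
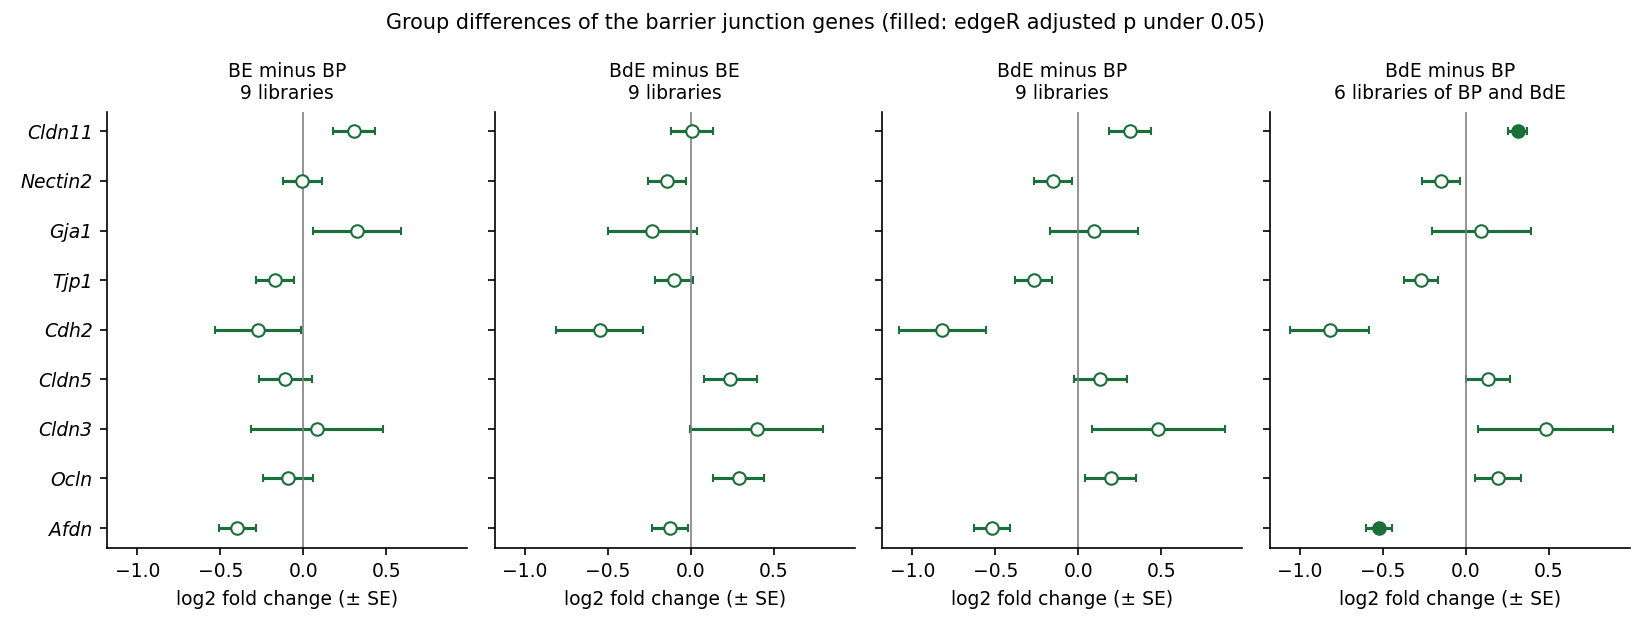
Log2 fold change of each barrier junction gene with its SE in the edgeR fits, with filled points for an adjusted p under 0.05. No point is filled in the 3 comparisons of the 9-library fit, and Cldn11 and Afdn are filled in the fit of the 6 BP and BdE libraries.

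Fold changes followed gene length across the whole table. Across all genes tested, the median log2 fold change of BdE against BP was 0.30 among the shortest 1457 genes (median exonic length 403 bases) and -0.15 among the longest 1457 (11339 bases). Cldn11 has an exonic length of 1870 bases, in a class of 1457 genes whose median was 0.15, and Afdn one of 10345 bases, in the longest class. With a gene length offset in the 6-library fit, a setting chosen after the data were seen, Afdn kept an adjusted p below the threshold (-0.38, SE 0.0761, edgeR adjusted p = 0.0244, where 18.2% of genes passed). Cldn11 then did not pass (0.20, SE 0.0629, edgeR adjusted p = 0.0758), nor did Cdh2 (-0.69, SE 0.244, edgeR adjusted p = 0.0982). Tjp1, which had not passed without the offset either, went from -0.27 to -0.15 (edgeR adjusted p = 0.312). Leaving out each of the 6 libraries in turn, Afdn passed in 6 of 6 fits, Cldn11 without BdE 5 and without BdE 6, and Cdh2 without BdE 7. Of all genes, 8.63%, 5.1% and 7.05% passed without BP 5, 6 and 7, and 17.3%, 21.6% and 7.09% without BdE 5, 6 and 7.

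**Figure D3:**
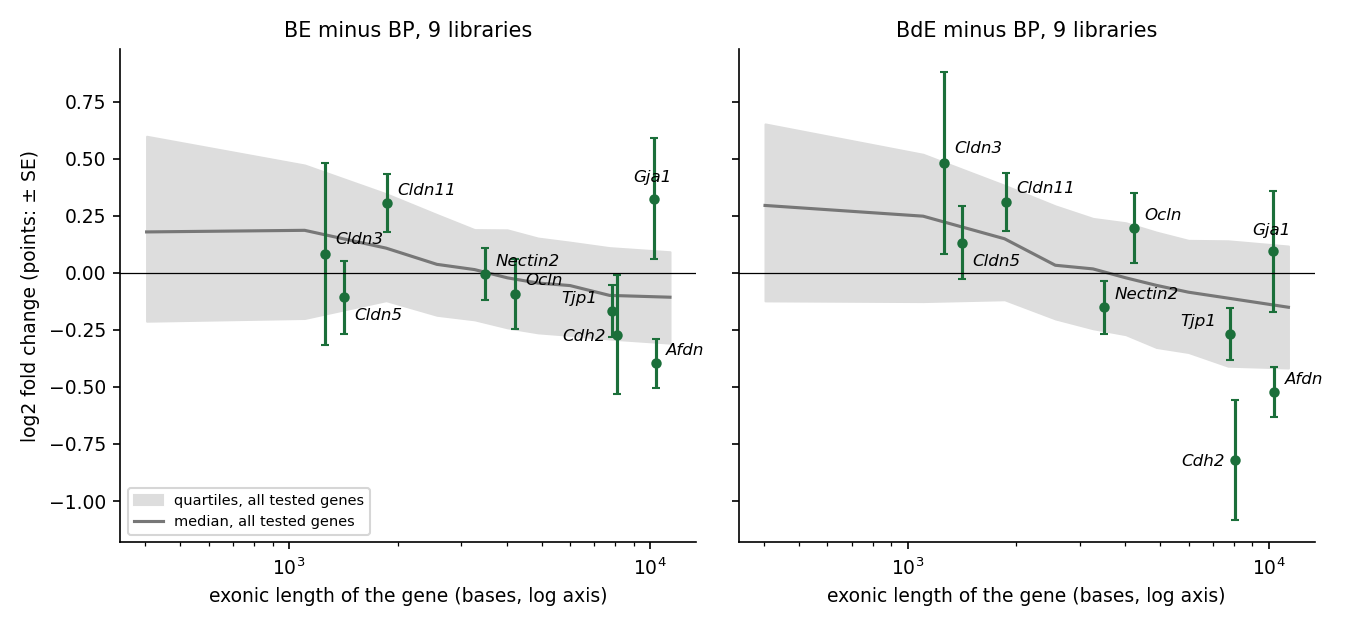
Log2 fold change of the barrier junction genes with its SE in the 9-library fit, for BE against BP and for BdE against BP. It is set against exonic length on a log axis, over the median and quartiles of all genes tested in classes of 1457 by length. For BdE against BP the medians run from 0.30 to -0.15, and there Cdh2 and Afdn lie below the lower quartile of their classes.

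The second question was whether the genes differed between BE and BP. Afdn was the 1 gene of the 9 whose groups did not overlap, with BE lower, as for 7.31% of all genes. None of the 9 passed in the edgeR fit of 9 libraries, where 0.0137% of genes did (2 genes). At an unadjusted p under 0.05 there were 2 of the 9, Cldn11 and Afdn, against 12.8% of all genes, and DESeq2 called none of the 9 and 0.42% of all genes. The log2 fold change of Cldn11 was 0.30 (SE 0.127, edgeR adjusted p = 0.379), and that of Afdn was -0.40 (SE 0.109, edgeR adjusted p = 0.379). The other 7 lay between -0.27 for Cdh2 and 0.33 for Gja1. Of these, Cldn3 at 0.08 turned to -0.07 with libraries scaled to the Sertoli markers, where the median of all genes was -0.096. Nectin2 at -0.005 turned to 0.03 with upper-quartile factors. The median of the 9 was -0.09, against 0.00 over all genes tested.

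How many genes passed in this comparison depended on BE 6. In the edgeR fit without it 29.9% of genes passed, and of the 9 genes Cldn11 was higher in BE by 0.44 (SE 0.0641, edgeR adjusted p = 0.00437) and Afdn lower, at -0.48 (SE 0.0974, edgeR adjusted p = 0.0119). In that fit Cdh2 stood at -0.51 and did not pass (edgeR adjusted p = 0.171). No gene length offset was fitted without BE 6. With that offset over 9 libraries, Cldn11 in BE against BP went from 0.30 to 0.21 (edgeR adjusted p = 0.381). In FPKM, BE 6 lay within the BP range for Cldn3, Cldn5, Cldn11, Tjp1 and Gja1, above it for Cdh2 and Nectin2, and below it for Ocln and Afdn. The part of its mitochondrial share, length trend and macrophage markers, given above, in these values was not tested.

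The third question was whether the 2 kinds of exosomes differed. None of the 9 genes passed between BdE and BE in the edgeR fit of 9 libraries, where 0.00686% of genes did (1 gene). None had an unadjusted p under 0.05, against 2.33% of all genes, and DESeq2 called none of the 9 and 0.179% of all genes. Cldn5 was the 1 gene whose groups did not overlap on TMM-scaled CPM, with BdE higher, as for 2.86% of all genes, and on the FPKM scale its groups did overlap. Its log2 fold change was 0.24 (SE 0.16). Values for the other 8 genes ran from -0.55 for Cdh2 (SE 0.261) to 0.40 for Cldn3 (SE 0.40), and the edgeR adjusted p of all 9 was 0.999. Cldn11 had a difference of 0.01 (SE 0.126), with a sign that turned with the gene length offset and with Sertoli scaling, and Afdn one of -0.12 (SE 0.109). Without BE 6 none of the 9 passed either, with Cdh2 at -0.31, Cldn3 at 0.22, Cldn5 at 0.34 and Cldn11 at -0.12. A p that misses the threshold does not show that the exosomes act alike.

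The libraries at the extremes of several genes were BdE 5 and BE 6. BdE 5 held the highest Cldn3 and Ocln and the lowest Cdh2 and Nectin2. The mean absolute deviation of the 9 genes from their own means was 0.385 on the log2 scale there, against 0.138 to 0.263 in the other 8 libraries. Without BdE 5 the edgeR fit of only BP and BdE called Cldn11 and Afdn, where 17.3% of all genes passed. The fit of all 3 groups without BdE 5 called 0 of the 9 for BdE against BP, where 0.0343% of genes passed. BE 6 stood opposite to BdE 5 in 3 of these genes, with the highest Cdh2 and Nectin2 and the lowest Ocln.

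**Figure D4:**
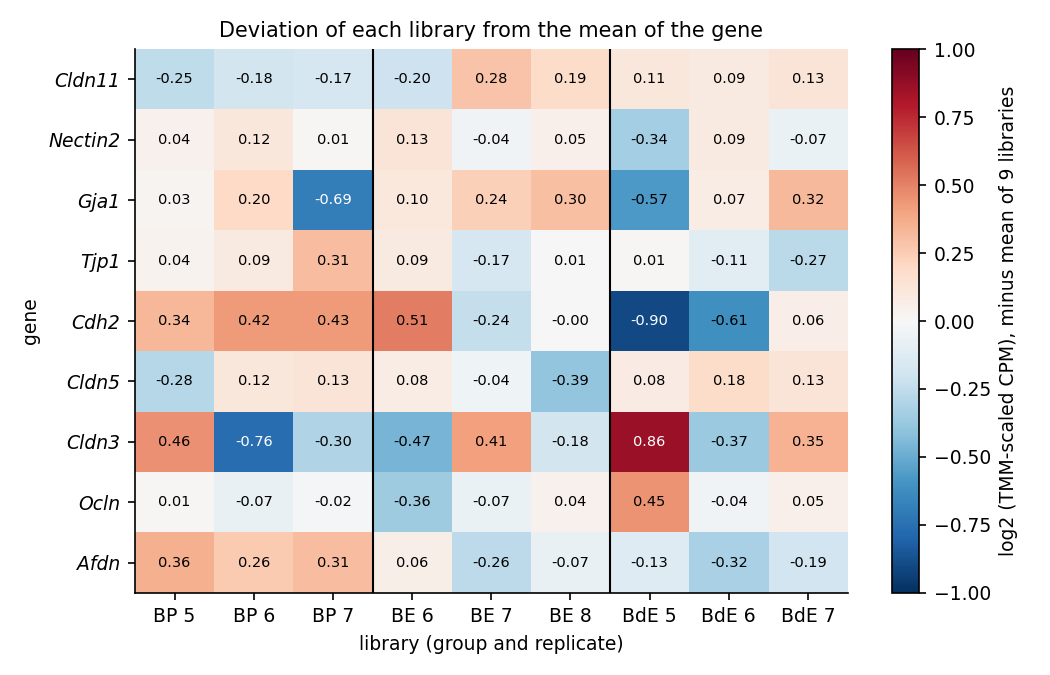
Deviation of each library from the mean of each barrier junction gene, in log2 of TMM-scaled CPM, with red above and blue below the mean. BdE 5 shows 0.87 for Cldn3 and -0.90 for Cdh2, and Gja1 is low in BP 7 (-0.69) and BdE 5 (-0.57).

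Some members moved together across the 9 libraries, as a description over libraries that share groups and depth. Tjp1 with Afdn had a Pearson r of 0.775, Cdh2 with Afdn 0.737 and Cldn3 with Ocln 0.697. Ocln with Nectin2 had -0.882, Cldn11 with Afdn -0.874 and Cldn3 with Nectin2 -0.832. The genes most like each member over the 9 libraries were sought among all those tested, leaving out names of Gm with a number or ending in Rik. They were Med31 (0.995) and Dusp28 (0.994) for Cldn11, Lpcat2 (0.973) and Cpne3 (0.973) for Afdn, and Ncdn (0.973) and Dyrk1b (0.971) for Cdh2. Tjp1 was most like Cab39 (0.989) and Eif4a-ps4 (0.976), and Nectin2 most like Pgd (0.985) and Tnip1 (0.985). For Gja1 they were Map3k6 (0.969) and Chst1 (0.953), for Cldn3 Ciapin1 (0.960) and Ndor1 (0.947), for Cldn5 Smim20 (0.948) and Jmjd4 (0.927), and for Ocln Mir8094 (0.947) and AC141477 (0.932).

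Other genes of the same junctions were read from 7 lists of 105 genes, of which 73 were tested. In the 9-library edgeR fit none passed. At an unadjusted p under 0.05 there were 21 of 73 for BdE against BP, 6 for BE against BP and 2 for BdE against BE, beside 24.1%, 12.8% and 2.33% of all genes. DESeq2 called 3 of 73 (1 higher, 2 lower), 0 and 0, beside 2.65%, 0.42% and 0.179%. Without BE 6, the edgeR fit called 2 higher and 19 lower for BE against BP, where 13.7% of all genes were higher and 16.2% lower, and 2 higher and 17 lower for BdE against BP, where 10.3% were higher and 12.1% lower. For BdE against BE none passed without BE 6 either, and positive log2 fold changes numbered 44 of 73 without it and 28 with it. In the 6-library fit of BdE against BP, 20 of 73 passed, 1 higher and 19 lower, beside the 9.2% and 11.9% of all genes given above. The log2 fold change was negative for 53 of the 73. With the gene length offset 2 were higher and 13 lower, beside 8.51% and 9.65% of all genes. The values below are from the 6-library fit, and their edgeR adjusted p over 9 libraries was 0.19 or above. Genes said to have risen or fallen there are those with an edgeR adjusted p under 0.05, higher or lower in BdE than in BP.

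Adhesion genes gave the lowest list median. Of 8 tested nectins, cadherins and catenins, 5 fell and none rose, with a median of -0.46 against 0.01 over all genes. Ctnna1, encoding alpha-catenin, which connects cadherins to actin, had an FPKM of 40.6, 49.5 and 32.6 in BP, 47.8, 15.4 and 18.3 in BE, and 19.3, 21.8 and 20.8 in BdE. Its BdE libraries were below all BP libraries, and BE 6 again lay among BP. The log2 fold change was -0.91 (SE 0.147, edgeR adjusted p = 0.0133). Nectin1 fell by 1.09, Cdh3, encoding P-cadherin, by 0.91, and Ctnnd1, encoding the p120 catenin that holds cadherins at the membrane, by 0.33 on the log2 scale. The fifth, Cadm1, an adhesion molecule that joins Sertoli and germ cells, was at -0.60 and is named here after its value was seen. Ctnnb1, encoding beta-catenin, was at -0.19 and did not pass (edgeR adjusted p = 0.155). With the gene length offset 4 of the 8 fell, with a median of -0.33 against 0.02 over all genes.

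Of 17 actin and anchoring genes of the ectoplasmic specialization, 7 fell and 1 rose, with a median of -0.25. Itgb1, encoding integrin beta 1, had an FPKM of 65.1, 65.6 and 63.9 in BP and 42.2, 41.5 and 40 in BdE, with no overlap. It fell by 0.58 in log2 (SE 0.0478), with an edgeR adjusted p of 0.00445. Vim, encoding the intermediate filament vimentin, rose from 111, 98.1 and 90.6 to 125, 132 and 127 FPKM, a log2 value of 0.43 (SE 0.0781, edgeR adjusted p = 0.016). Espn, encoding the actin bundler espin, was at 0.06 (SE 0.0898) and Cttn, encoding cortactin, at -0.07 (SE 0.053), and neither passed. With the gene length offset 4 of the 17 fell and 1 rose, with a median of -0.10.

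Of 12 tight junction adaptors and polarity genes, 2 fell and none rose, with a median of -0.19. They were Dlg1, a polarity scaffold, at -1.28 (SE 0.145, edgeR adjusted p = 0.00705), and Cgnl1, encoding paracingulin, at -0.32 (SE 0.0731, edgeR adjusted p = 0.0289). Cgn, encoding cingulin, stood at 117 FPKM in BP and 97.6 in BdE and did not pass (-0.18, edgeR adjusted p = 0.0805), and Pard6b and Scrib were at -0.10 and 0.08. Of 9 other claudins and tight junction membrane genes none passed, with a median of 0.01. The junctional adhesion molecules F11r, Jam2 and Jam3 were at -0.06, 0.01 and 0.01, with mean BP levels of 84.6, 44.9 and 28.6 FPKM. Cldnd1 was at -0.63 and Cldn23 at 0.21. With the gene length offset 1 of the 12 adaptors and polarity genes fell, with a median of -0.13.

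None of the 5 tested gap junction genes passed (Gja6 at 0.28, Gja4 at -0.15, Gja5 at -0.20 and Gjc1 at -0.43, with a list median of -0.20). Neither did the 2 desmosome genes tested, Jup, encoding plakoglobin, at -0.11 and Pkp4 at -0.32. Of 20 regulators of the barrier 5 fell and none rose, with a median of -0.06. Rptor, encoding the mTORC1 subunit raptor, was at -0.52 (SE 0.0618, edgeR adjusted p = 0.00788) and Dicer1, the microRNA-processing enzyme, at -0.85 (SE 0.173, edgeR adjusted p = 0.0222). The other 3 were Tgfbr2 at -1.23, Mtor at -0.58 and Nr2c2 at -0.89, named here after their values were seen. The transcription factors Sox9 (-0.05) and Gata4 (0.14), which mark Sertoli cells among other cells, and the GTPase gene Cdc42 (-0.06) did not pass. With the gene length offset 4 of the 20 regulators fell and 1 rose, with a median of -0.03. In the 6-library fit without the offset, 9.2% of all genes were higher and 11.9% lower. Lower were 4 of 6 Leydig, 4 of 6 macrophage, 3 of 6 peritubular myoid and 4 of 10 tested endothelial cell markers. Among those lists none was higher, while 3 of 14 Sertoli markers were higher and 1 lower. Leydig markers summed to 8434 to 9403 FPKM in BP and 8866 to 10508 in BdE. Most of that sum was Insl3 (mean 7910 FPKM), at 0.31 over 9 libraries, which did not pass (6-library edgeR adjusted p = 0.0707). The part of these cell types in the values of Itgb1, Ctnna1 and the other genes that fell was not tested.

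**Figure D5:**
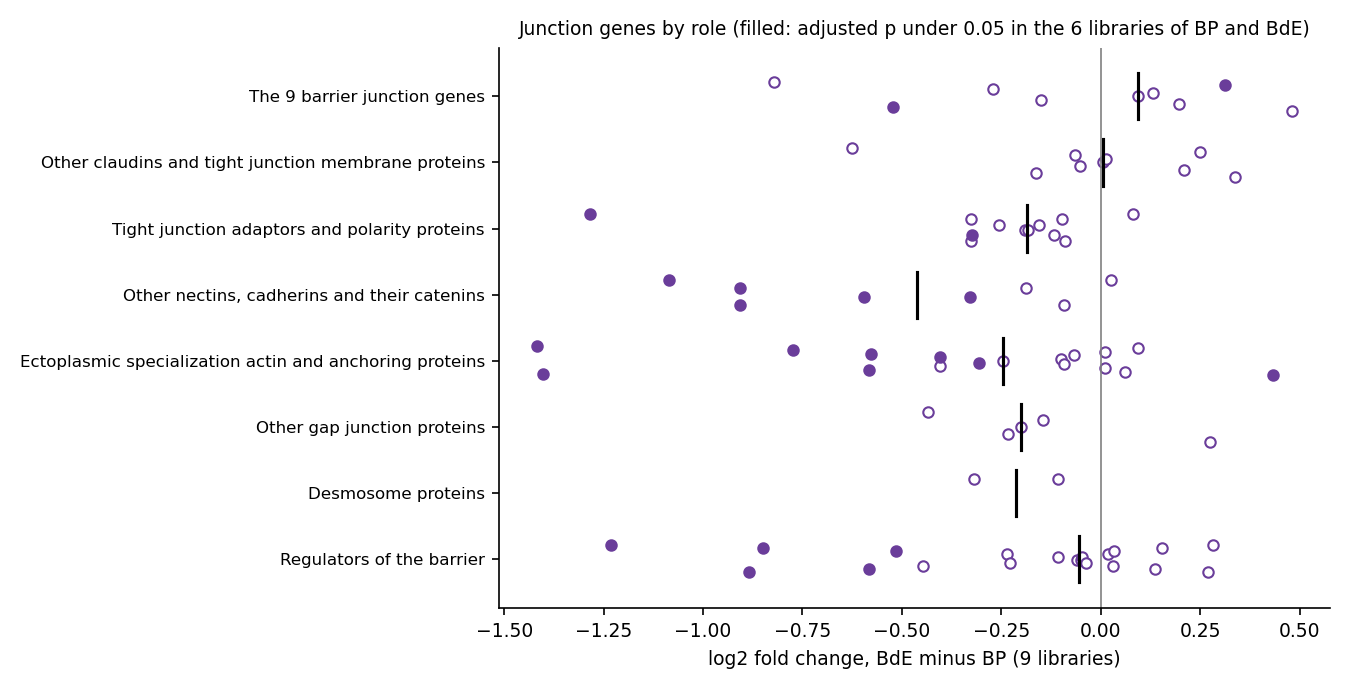
Log2 fold change of BdE against BP in the 9-library fit for the barrier junction genes and the 7 lists of other junction genes, 1 point per tested gene, with the list median as a black bar and filled points for an adjusted p under 0.05 in the 6 BP and BdE libraries. Filled points lie mostly below 0 among nectins, cadherins and catenins and among the ectoplasmic specialization genes, and none is filled among other claudins, gap junction and desmosome genes.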

How the data were processed

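The deposited table gives, for each gene and library, a read count and an FPKM value made by the authors; per the file headers both are per gene. All counts are whole numbers, and FPKM is 0.0001 where the count is 0. The submitters' processing notes name Bowtie 0.12.2 and mm8, whereas the table's coordinates are those of GRCm38: start and end match GENCODE M21 for 93.8% of genes. Neither the counting program nor the strand setting is given in the sources used here.

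Counts were tested with edgeR 4.0.16 (TMM, quasi-likelihood, two-sided, all 9 libraries, group as the only term) in R 4.3.3, with Benjamini-Hochberg adjustment over 14570 genes and a threshold of 0.05. A fit of only the groups compared (6 libraries), DESeq2 1.42.0, other scalings, no filter, a gene length offset, a replicate block and leaving out each library were alternatives. The fits were tested on simulated data. Exonic lengths were derived from FPKM and counts and calibrated on 621 genes with 1 transcript in GENCODE M21. Promoters are from RefSeq. Non-overlap means that the ranges of 2 groups do not meet. A count of 0 allows up to 3 counts, 0.0428 to 0.0518 CPM (counts scaled to a common library total), for counting error only.

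Genes named were all 9 members, of each list the 3 with the highest mean FPKM and the 2 with the smallest p of a test over the 3 groups, and for each member the 2 most alike by Pearson r of log2 (TMM-scaled CPM + 1). Single marker genes, such as Clu, Dhh, Trf and Insl3, are named after their values were seen. The members and lists were chosen with earlier results of these data known. Samples with the same replicate number had residual correlations of -0.0915 to 0.206, and those with different numbers -0.173 to 0.167, so no pairing was assumed.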

Additional observations from a re-analysis of the deposited data

How the results depend on the processing

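The 9-library counts of genes passing were small and depended on single libraries. For BE against BP (2 genes), the count was 0 with the 2 groups only, 61 with DESeq2, 1 when scaled to Sertoli markers, and 0 to 4351 leaving out each library (4351 without BE 6). For BdE against BP (1 gene), it was 3078 with the 2 groups only, 385 with DESeq2, 2 with upper-quartile factors, 3 without the filter, 2 with the length offset, and 0 to 3257 leaving out each library (3257 without BE 6). The 6-library fit gave 2646 with the length offset and 1257, 743 and 1027 without BP 5, 6 and 7, and 2525, 3140 and 1033 without BdE 5, 6 and 7, settings added after the data were seen. For BdE against BE (1 gene), it was 0 with the 2 groups only, 26 with DESeq2, 2 without the filter, 0 when scaled to Sertoli markers, and 0 to 6 leaving out each library. For the test over 3 groups (2 genes), it was 194 with DESeq2, 0 when scaled to Sertoli markers, and 0 to 3509 leaving out each library. With the replicate block, alone or with the length offset, it was 0 in all 4; the block is no pairing of the design. The causes were not tested. Scaling to Sertoli markers put the median of all genes at -0.15 in BdE against BP, from 0.01. It was -0.096 in BE against BP, from 0.002, and -0.069 in BdE against BE, from -0.005.

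Of the members' values under alternatives, 505 kept their direction and side of the threshold. Another 18 passed it, as none did in the main 9-library edgeR fit. The other 29 reversed, each in a comparison where that gene passed in no setting. For BE against BP, Cldn3 reversed to -0.06 with the length offset, -0.067 with Sertoli scaling, and ran from -0.205 to 0.48 leaving out libraries. Cldn5 reversed to 0.17 with endothelial scaling and ran from -0.23 to 0.015. Ocln ran from -0.18 to 0.014, the latter without BE 6. Nectin2 reversed to 0.031 with upper-quartile factors and 0.001 with the length offset, and ran from -0.047 to 0.037. For BdE against BP, Cldn5 reversed to -0.039 with the length offset, -0.028 with the block and length offset, -0.023 with Sertoli scaling and -0.038 in 6 libraries with the length offset. Gja1 reversed to -0.10 with Sertoli scaling, and ran from -0.13 to 0.31 leaving out libraries (-0.13 to 0.30 in 6 libraries). For BdE against BE, Cldn3 reversed to -0.004 with the block and -0.10 with the block and length offset. Cldn11 reversed to -0.002 with the 2 groups only, -0.014 with the length offset and -0.037 with Sertoli scaling, and ran from -0.12 to 0.11 leaving out libraries.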
